A study of Rattus norvegicus with 10 samples.

Results

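The genes described here belong to the nuclear part of the oxidative phosphorylation machinery, the 5 enzyme complexes of the inner mitochondrial membrane that pass electrons to oxygen and make ATP. They were followed in A7r5 cells, a rat line derived from embryonic aorta and labelled as vascular smooth muscle, that carried different forms of BMPR2, the type II receptor for bone morphogenetic proteins. A probe set (a group of array probes read out as 1 value) was taken as a member when the platform annotation gave it a single gene whose symbol begins with Nduf followed by a, b, c, s or v, is Sdha, Sdhb, Sdhc or Sdhd, begins with Uqcr or Atp5, or begins with Cox, a digit between 4 and 8 and a letter between a and c. The rule found 84 of the 14217 genes that the annotation gives singly, read by 94 of the 31042 probe sets that are not controls. They comprise 39 probe sets of complex I subunits, 7 of complex I assembly factors, 5 of complex II, 8 of complex III, 15 of complex IV and 20 of complex V. The complexes were assigned by symbol, so Ndufa4 and Ndufa4l2 stand under complex I, although Ndufa4 is now known to sit in complex IV.

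The study hybridised 10 arrays, 2 for each of 5 stable transfections. The CD mutant carried 2579-2580delT, a change in the cytoplasmic tail of the receptor. The KD mutant carried C994T in the kinase domain, and the ED mutant carried T354G in the extracellular domain. The reference cells carried wild-type human BMPR2 or the empty vector. The labels of the empty vector arrays differ among themselves: titles and source names call these arrays native A7r5, while the transfection label and the description give an empty vector. Every group was grown in normal oxygen with 10% serum and collected at about 50% confluence. The labels do not say whether a stable line was a single clone, nor whether paired arrays hold independent cultures, and p-values therefore reflect array-to-array spread that may be technical. With 2 arrays a group, the number of arrays limits the precision.

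Complex I (NADH dehydrogenase) and complex II (succinate dehydrogenase) feed electrons to ubiquinone, complex III (the cytochrome bc1 complex) passes them to cytochrome c, and complex IV (cytochrome c oxidase) hands them to oxygen. Proton pumping by complexes I, III and IV drives ATP synthesis by complex V. Some subunits are encoded in mitochondrial DNA, and the genes described here are among those that the nucleus supplies. Their transcription is known to depend on the factors NRF1, the ETS family member GABP and YY1, and on the coactivator Ppargc1a. Smooth muscle cells rely strongly on glycolysis and use oxidative phosphorylation as well.

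The KD mutant arrays stood apart from the other 8 arrays over the whole transcriptome, and this bears on every KD mutant value below. Over 22502 tested probe sets, correlations of KD mutant arrays with the other arrays were 0.553 to 0.568, against 0.990 to 0.996 among the other 8. The array medians were 4.94 and 4.95 log2 on the KD mutant arrays and 5.32 to 5.36 on the others, and the mean of the 57 Affymetrix control probe sets was 8.12 to 8.37, against 8.98 to 9.45. Of 9 smooth muscle markers, 8 had a higher value on the KD mutant arrays, and their summed level was 77.8 to 80.1 log2 units on the KD mutant arrays against 52.8 to 53.9 on the other 8. Tagln, a defining smooth muscle actin-binding protein, read 11.15 and 11.51 on the KD mutant arrays and 4.82 to 5.19 on the others, close to the level of 4.82 used as the expression filter. The summed level of 6 fibroblast and matrix markers was 44.0 to 45.2 on the KD mutant arrays against 26.4 at most on the others, and 3 of the 6 were higher there. By contrast, 5 of 6 epithelial markers were lower on the KD mutant arrays (summed level 35.0 to 35.6 against 45.2 to 48.1), as were all 6 hepatic or renal markers (25.3 to 25.7 against 36.1 to 39.0) and 5 of 7 skeletal and cardiac muscle markers (37.4 to 37.7 against 38.8 to 40.4). The skeletal and cardiac list includes Cox6a2 and Cox7a1, which are also members described below under complex IV. In the smooth muscle, fibroblast, epithelial, hepatic or renal, and skeletal and cardiac lists, 1, 3, 2, 4 and 3 genes lay below the filter level on the KD mutant arrays, and 3, 5, 2, 1 and 2 did on the other 8. By most of these markers the smooth muscle label holds for the KD mutant arrays, while on the other 8 arrays defining markers such as Tagln go against it. The sums took the brightest probe set of each gene, and not every smooth muscle probe set was higher on the KD mutant arrays. Of 10 tested, 6 were higher and 3 lower at a limma adjusted p under 0.05. The lower ones were Smtn (-2.07 and -1.83 log2) and 1 probe set of Tpm2 (-1.40). Myh11 differed by 0.16, and by -0.25 with quantile normalization. The part of this marker difference between the arrays in the results below was not tested. Fewer cells of a type and less RNA per cell cannot be told apart in such bulk samples.

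The promoters of the member genes were searched for the letters that the factors named above are known to bind. RefSeq promoter sequences of GRCr8, from 250 bases before to 50 after the start, were matched by symbol for 77 of the 84 genes. The motifs searched on both strands were GCGCA, any base and GCGC for NRF1, CCGGAAG for ETS factors and AAGATGGC for YY1, and none of these strings contains another. The NRF1 letters were in 15 member promoters (19.5%), against 5.67% of 21851 promoters of protein-coding genes and 4.25% of all 33469 promoters. The ETS letters were in 21 (27.3%), against 10.7% and 8.75%, and the YY1 letters in 17 (22.1%), against 3.67% and 3.17%. In 34 member promoters (44.2%) none of these letters occurred, against 82.1% and 85.4%. Median GC content was 56.0% in member promoters, 55.0% in those of protein-coding genes and 51.7% in all. Below, 4 promoters are printed for genes on which the comparisons below turn: a complex III pair whose tested probe sets differed in direction on the KD mutant arrays (Uqcrc1 lower, Uqcrc2 higher), the member with the largest difference there (Atp5mpl), and a complex II gene whose probe sets went opposite ways (Sdhd). Capitals mark the motif matches, and position 1 is the first base printed.
Uqcrc1, chr8:118467973-118468272, plus strand: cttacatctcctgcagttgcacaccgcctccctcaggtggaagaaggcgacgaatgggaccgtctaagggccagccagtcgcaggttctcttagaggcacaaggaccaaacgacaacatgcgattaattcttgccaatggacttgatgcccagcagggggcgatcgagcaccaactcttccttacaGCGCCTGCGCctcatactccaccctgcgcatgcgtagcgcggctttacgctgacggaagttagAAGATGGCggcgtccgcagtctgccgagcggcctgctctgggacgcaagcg
Uqcrc2, chr1:184598990-184599289, plus strand: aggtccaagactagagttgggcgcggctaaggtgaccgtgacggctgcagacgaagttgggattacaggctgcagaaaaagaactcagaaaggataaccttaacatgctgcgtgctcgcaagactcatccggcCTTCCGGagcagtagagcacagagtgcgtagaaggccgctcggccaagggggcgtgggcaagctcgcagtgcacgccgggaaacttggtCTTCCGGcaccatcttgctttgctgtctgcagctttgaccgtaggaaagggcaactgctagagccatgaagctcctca
Atp5mpl, chr6:136845591-136845890, minus strand: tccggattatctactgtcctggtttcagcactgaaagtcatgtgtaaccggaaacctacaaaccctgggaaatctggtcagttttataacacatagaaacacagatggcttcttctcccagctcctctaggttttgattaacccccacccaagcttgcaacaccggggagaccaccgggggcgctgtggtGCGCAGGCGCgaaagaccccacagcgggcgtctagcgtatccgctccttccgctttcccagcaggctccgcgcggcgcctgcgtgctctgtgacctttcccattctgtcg
Sdhd, chr8:59850592-59850891, minus strand: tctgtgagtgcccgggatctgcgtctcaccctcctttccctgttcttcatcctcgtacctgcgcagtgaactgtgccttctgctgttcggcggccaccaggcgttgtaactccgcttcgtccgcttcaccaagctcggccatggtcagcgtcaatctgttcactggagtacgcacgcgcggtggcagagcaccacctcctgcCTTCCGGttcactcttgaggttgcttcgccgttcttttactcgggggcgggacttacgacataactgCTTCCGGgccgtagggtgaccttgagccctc
Uqcrc1 has the NRF1 letters at positions 187 to 196 and the YY1 letters at 250 to 257. Uqcrc2 has the ETS letters at 134 to 140 and 223 to 229, Atp5mpl the NRF1 letters at 191 to 200, and Sdhd the ETS letters at 203 to 209 and 270 to 276. A match is a string of letters and not a measured binding site.

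Of the 94 member probe sets, 88 for 82 genes entered the tests, having reached 4.82 log2 on at least 2 arrays. The other 6 did not: single probe sets of Ndufa9 and Uqcrc2, the only probe sets of Cox6b2 and Cox8b, and a pair for Atp5if1. Of the 88, 5 (Cox7a1, Cox7b2, Ndufaf4, Uqcr10 and a probe set of Ndufa7) passed through the KD mutant arrays alone and so had to be higher there. Both KD mutant arrays lay below the filter level for 4 others (Cox6c-ps1, Ndufa4l2 and single probe sets of Atp5me and Atp5po). No detection calls were used here, so differences that reach below that level are not exact in size. The median of the tested members was 10.07 and 10.02 log2 on the KD mutant arrays and 8.89 to 9.05 on the others. Across members, the correlation was 0.996 between the KD mutant arrays, 0.997 to 0.999 among the other 8 and 0.663 to 0.692 between them, as a description of arrays that share probes and processing.

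KD mutant cells differed from the other 4 groups in both directions across the machinery. Of the 88 tested members, 54 were higher on the KD mutant arrays (61.4%), 30 were lower (34.1%) and 4 did not pass an adjusted p of 0.05 in limma. Over all tested probe sets, 35.4% were called higher and 56.2% lower, 91.5% in all, so that being called is close to the background and the split of directions is what can be described. The median difference, KD mutant minus the mean of the other 4 groups, was 0.60 log2 for the members and -0.56 for all tested probe sets. The direction also varied with brightness. Below a mean of 7 log2 on the other 8 arrays, 19 of 25 members had a positive difference (76.0%, beside 42.0% of all tested probe sets). From 7 to 10 it was 28 of 37 (75.7%, beside 33.8%). At 10 or above it was 8 of 26 (30.8%, beside 24.5%), with a median of -0.62 beside -0.64. The part of brightness in the differences between complexes and subunits was not tested. The size depends on how arrays are scaled. With quantile normalization 46 members were higher and 36 lower, with a median of 0.26 against -0.50 for all; with each array centred on its median 59 were higher and 23 lower, with a median of 0.99 against -0.17. Of the called members, the share higher was 64.3% as deposited, 56.1% with quantile normalization and 72.0% with centring, beside 38.6%, 36.2% and 46.6% of all called probe sets. Of the members, 46 were called higher and 23 lower under all 3 scalings, and 15 probe sets changed sign between them. These 15 had small differences as deposited (-0.39 to 0.51) and were those of Ndufa9, Ndufb3, Ndufb7, Ndufb9, Ndufb11, Ndufs3, Ndufs4, Ndufs6, Ndufaf8, Sdhb, Cox5b, Atp5f1a, Atp5f1c and Atp5pd, 1 probe set each, and 1 of Sdhd.

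The filter fixed the direction of the 5 members that passed through the KD mutant arrays alone and of the 4 that lay below its level on both of them. The counts and medians by complex given below keep these members. Without these 9, and likewise without such probe sets among all tested, a setting chosen after seeing the data, 49 of 79 members were higher (62.0%) and 26 lower (32.9%), with a median of 0.60. Of the 14338 probe sets left in all, 40.6% were higher and 46.4% lower, with a median of -0.10. In these sets a difference above 4 log2 units was seen for 6 members (7.59%) and 2.59% of all, and one below -2 for 1 member (1.27%) and 3.17% of all. The KD mutant arrays did not overlap the other 8 for 81 members, 52 above and 29 below, beside 89.5% of all tested probe sets (34.6% above and 54.9% below), so that lack of overlap is near the background.

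**Figure D1:**
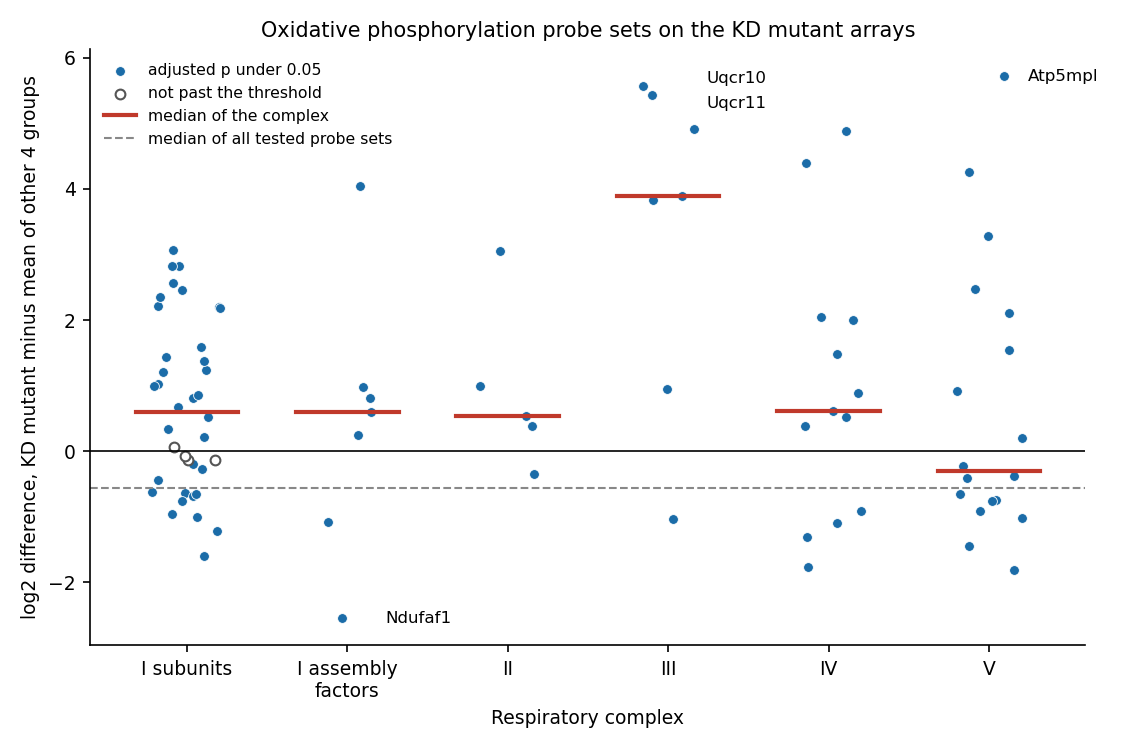
Each point is a tested member probe set; the vertical axis is its log2 difference, KD mutant minus the mean of the other 4 groups, and the horizontal axis its complex. Red bars are medians of a complex, the dashed line is the median of all tested probe sets (-0.56), and open points did not pass an adjusted p of 0.05. Complex III has the highest median (3.89) and complex V a median below 0 (-0.30), which still lies above the dashed line.

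Complex III had the largest median difference of the 5 complexes, 3.89 log2 as deposited (3.48 with quantile normalization and 4.28 with centring), with 6 of 7 tested probe sets higher and 1 lower. By their tested probe sets, Uqcrc1 and Uqcrc2, the core proteins that face the matrix as a pair, went opposite ways. A further probe set of Uqcrc2 did not pass the filter, so the values of Uqcrc2 rest on its tested probe set alone. Uqcrc2 read 11.32 and 11.28 on the KD mutant arrays and 6.08, 6.40 and 6.54 (lowest, median and highest) on the other 8, with no overlap. The difference was 4.92 ± 0.108 (SE), or 30.2-fold higher in KD mutant cells, with a limma adjusted p of 1.13e-12. Uqcrc1 read 10.25 and 10.46 on the KD mutant arrays, below all other arrays at 11.13, 11.39 and 11.61. It was 2.05-fold lower (log2 difference -1.04 ± 0.0864, adjusted p 1.63e-07 in limma). Uqcrfs1, the Rieske iron-sulphur protein that hands electrons onward, read 10.73 and 10.69 on the KD mutant arrays and 9.50, 9.74 and 9.93 on the others, and was 1.93-fold higher (adjusted p 2.99e-07 in limma). Cyc1, the cytochrome c1 of this complex, falls outside the naming rule and was read for comparison. Its difference was smaller than the median of the complex, at 0.74 log2 (0.26 with quantile normalization and 1.13 with centring).

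The 4 small complex III subunits had differences of 3.84 to 5.57 log2, with a median of 4.66. Uqcr10, which packs beside the catalytic core, read 9.92 and 9.83 on the KD mutant arrays, whereas the other 8 stayed between 4.24 and 4.38, all below the filter level. Its measured difference was 5.57 log2, given without a test because it passed the filter through the KD mutant arrays alone. Uqcr11 read 11.34 and 11.27 on the KD mutant arrays against 5.66, 5.87 and 6.03, a difference of 5.43 ± 0.0831 or 43.0-fold. Uqcrh, the acidic hinge protein that helps cytochrome c1 dock cytochrome c, was at 9.57 and 9.33 against 5.40, 5.56 and 5.73, 14.8-fold higher. Uqcrq, a small subunit associated with ubiquinone binding, was at 12.01 and 11.83 against 7.94, 8.09 and 8.18, 14.3-fold higher. For Uqcr11, Uqcrh and Uqcrq the KD mutant arrays were above every other array, as they were for 34.6% of all tested probe sets. For Uqcr10 the filter fixed this direction. In all 4 genes the other groups lay close together.

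**Figure D2:**
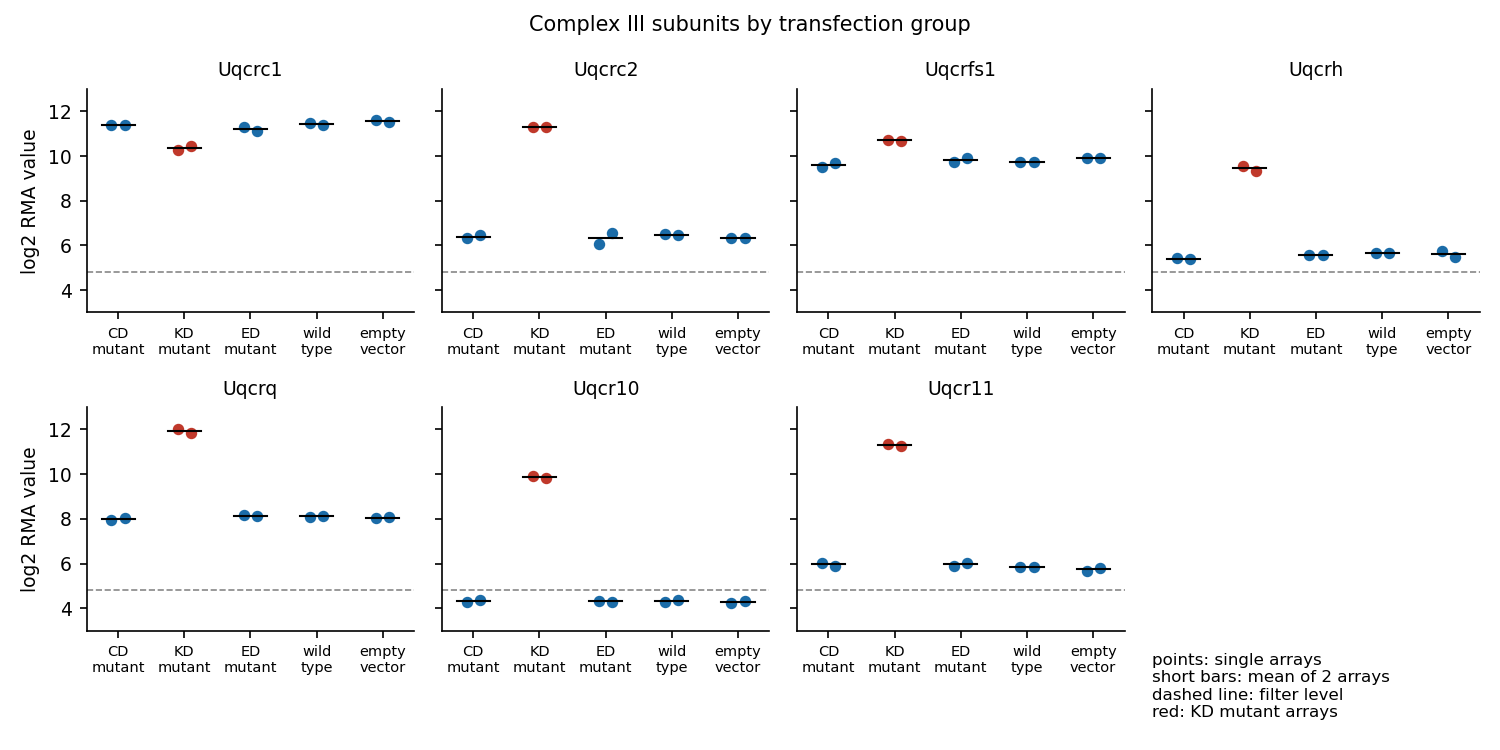
The log2 RMA value of the 7 tested complex III probe sets is on the vertical axis and the 5 transfections are on the horizontal axis; points are arrays, short bars are means of 2 arrays and the dashed line is the filter level of 4.82. The red KD mutant points lie above all other arrays for 6 genes, a direction that the filter fixed for Uqcr10, and below them for Uqcrc1.

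Complex I subunits were higher in 22 and lower in 12 of 38 tested probe sets, with 4 not past the threshold and a median of 0.60 log2 (0.32 with quantile normalization and 0.98 with centring). The core subunits, which carry the flavin, the iron-sulphur clusters and the ubiquinone site and are conserved in bacteria, were mixed: 2 of 6 tested were higher and 4 lower, with a median of -0.48 (-0.97 with quantile normalization and -0.09 with centring) and a range from -1.59 to 2.35. Ndufs1, the largest iron-sulphur subunit, read 9.82 and 9.54 on the KD mutant arrays and 7.08, 7.37 and 7.43 on the others, a 5.1-fold rise (adjusted p 6.08e-10 in limma). Ndufv1, which binds NADH and the flavin, read 10.32 and 10.22 on the KD mutant arrays against 11.77, 11.87 and 11.94, and fell 3.02-fold (log2 difference -1.59 ± 0.0774, adjusted p 1.21e-09 in limma). Its partner in the NADH-oxidising module, Ndufv2, was higher by 0.81 log2, and the iron-sulphur subunits Ndufs7 and Ndufs8 were lower (-0.76 and -0.68). Ndufs3 read 9.43 and 10.01 on the KD mutant arrays and 9.89 to 10.19 on the others, so the groups overlapped. Its difference of -0.28 (adjusted p 0.047 in limma) was 0.01 without KD mutant replicate 1.

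Accessory complex I subunits, which surround the core and are needed for its assembly and stability, gave 20 higher, 8 lower and 4 not past the threshold of 32 probe sets, with a median of 0.77 (0.48 with quantile normalization and 1.16 with centring). Ndufc1, a small membrane-arm subunit, read 9.27 and 9.47 on the KD mutant arrays and 6.08, 6.30 and 6.53 on the others, an 8.38-fold rise (adjusted p 5.48e-11 in limma). Ndufa12, a peripheral-arm subunit, read 12.05 and 11.68 against 8.95, 9.03 and 9.15, and Ndufa11, a membrane-arm subunit, 9.78 and 9.74 against 6.76, 6.96 and 7.10; both differed by 2.82. Every KD mutant array was above all others for these 3 genes. Ndufa4l2, a paralog of Ndufa4 known as a hypoxia-inducible gene, read 4.66 and 4.32 on the KD mutant arrays, below the filter level, and 5.55, 5.65 and 6.05 on the others. Its measured difference was -1.22, in a direction that the filter fixed. Ndufb9, Ndufa9, Ndufb7 and Ndufb11 did not pass the threshold, with differences of -0.13, -0.13, -0.07 and 0.06 and adjusted p of 0.122, 0.129, 0.437 and 0.454. Ndufb8 had the widest gap between the KD mutant arrays of all tested members, at 0.86.

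Assembly factors of complex I act on intermediates and are absent from the finished enzyme. Of 7 probe sets, 5 were higher (71.4%) and 2 lower (28.6%), beside 35.4% and 56.2% of all tested probe sets, with a median of 0.60. With quantile normalization Ndufaf8 went from 0.24 to -0.25 and was called lower. Probe set 1374082_at of Ndufaf7 went from 0.60 to 0.13 there and was not called. Ndufaf4 read 7.89 and 7.85 on the KD mutant arrays and 3.61, 3.84 and 3.95 on the others, all 8 of which lay below the filter level, so its direction was fixed by the filter. Ndufaf3, its partner in the early assembly of the ubiquinone-binding module, read 8.13 and 7.60 against 6.78, 6.90 and 7.02, a difference of 0.98. Ndufaf1, a factor for the membrane arm, fell the furthest of all members. It read 5.78 and 5.89 on the KD mutant arrays and 8.23, 8.39 and 8.45 on the others, a difference of -2.55 ± 0.0822 or 5.85-fold (adjusted p 2.92e-11 in limma). Ndufaf5, which modifies a core subunit, was lower by adjusted p 2.43e-07, at 7.78 and 7.52 against 8.62, 8.73 and 8.86.

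Complex II is the only respiratory complex encoded wholly by nuclear genes, and also works in the citric acid cycle. Sdha, the flavoprotein, read 10.06 and 10.01 on the KD mutant arrays and 9.34, 9.50 and 9.68 on the others, a difference of 0.53 (adjusted p 7.35e-05 in limma) that was 0.04 and no longer called with quantile normalization. Sdhb, the iron-sulphur subunit, read 9.89 and 9.93 against 9.26, 9.55 and 9.59, and Sdhc, a membrane anchor, 9.42 and 9.10 against 8.10, 8.26 and 8.51. These were higher by 0.39 and 1.00, although Sdhb was at -0.11 and not called with quantile normalization. Sdhd, the other membrane anchor, was read by 2 probe sets that disagreed. Probe set 1388294_at was at 10.08 and 10.03 on the KD mutant arrays and 6.80, 7.03 and 7.11 on the others, 8.3-fold higher (adjusted p 1.67e-11 in limma). Probe set 1371296_at was at 8.59 and 8.44 against 8.69, 8.88 and 8.98, lower by -0.36 (adjusted p 0.00142), a call that did not hold when arrays were centred on their medians (0.03, adjusted p 0.707). The median of the 5 complex II probe sets, 0.53, was 0.04 with quantile normalization.

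Genes with 2 or more tested probe sets show how far a gene-level direction holds. There were 6 such member genes, and in 2 of them (33.3%) the probe sets differed in sign between the KD mutant and the other groups. Over all 3376 such genes this share was 44.5%. The median spread between probe sets of a gene was 1.33 log2 for the members and 1.44 for all. Besides Sdhd, the probe sets of Ndufa7, an accessory subunit of complex I, disagreed: 1395045_at read 5.73 and 5.67 on the KD mutant arrays against 3.99, 4.35 and 4.63, and 1375411_at read 9.08 and 9.10 against 9.94, 10.12 and 10.21. The probe sets of Ndufv3 differed by 0.34 and 2.21, those of Ndufaf7 by 0.60 (0.13 and not called with quantile normalization) and 0.82, those of Atp5me by -1.81 and -1.02, and those of Atp5po by -1.45 and -0.66.

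Complex IV members were higher in 9 and lower in 4 of 13 tested probe sets, with a median of 0.61 (0.24 with quantile normalization and 1.00 with centring). Among them are Cox7a1, Cox7b2 and Cox6c-ps1, whose direction the filter fixed. Tissue isoforms allow pairs of genes to be followed side by side. Cox6a1, the form of subunit VIa found in most tissues, read 12.34 and 12.47 on the KD mutant arrays and 7.81, 8.02 and 8.15 on the others, 21.1-fold higher (adjusted p 6.05e-13 in limma). Its heart and skeletal muscle counterpart Cox6a2 read 4.83 and 4.76 against 5.63, 5.84 and 6.22, lower by a log2 difference of -1.10 (adjusted p 1.22e-06). Cox7a2l, which helps join complexes III and IV into supercomplexes, read 10.82 and 10.75 against 5.66, 5.95 and 6.03, 29.6-fold higher. Cox7a1, the muscle form of subunit VIIa, was at 5.10 and 5.42 on the KD mutant arrays and 4.20, 4.36 and 4.57 on the others, below the filter level, and Cox7a2 had no probe set with a single gene. Cox8a, the form of subunit VIII found in most tissues, was lower, at 12.54 and 12.61 against 13.43, 13.47 and 13.56 (difference -0.90). The only probe sets of Cox8b and of Cox6b2, a testis form, were below the filter level on all arrays. Cox6b1, the ubiquitous form of subunit VIb, was higher by 0.53.

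Among other complex IV subunits, Cox6c read 13.17 and 13.08 on the KD mutant arrays and 10.87, 11.08 and 11.30 on the others, a difference of 2.04. Cox7c, Cox7b and Cox5b were higher by 1.48, 0.61 and 0.39 (Cox5b at -0.01 with quantile normalization). Cox7b2, which passed the filter through the KD mutant arrays alone, read 6.05 and 6.22 against 3.96, 4.10 and 4.41. Cox5a, which binds a thyroid hormone metabolite in the bovine enzyme, fell 3.39-fold, to 6.27 and 6.02 on the KD mutant arrays against 7.73, 7.89 and 8.21 (adjusted p 2.47e-08 in limma). Cox6c-ps1, a processed copy of Cox6c, read 4.28 and 4.23, below the filter level, against 5.37, 5.55 and 5.77. Its direction was opposite to that of Cox6c and was fixed by the filter. Whether its probe set shares signal with Cox6c was not tested. Cox4i1 and Cox4i2, the ubiquitous and lung-enriched forms of subunit IV, fall outside the naming rule and were read for comparison. Cox4i1 was at 12.54 on both KD mutant arrays against 11.44, 11.54 and 11.67, higher by 0.98 (adjusted p 6.52e-08 in limma), and Cox4i2 at 4.06 and 4.26, below the filter level, against 5.27, 5.37 and 5.43.

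Complex V had 8 higher (44.4%) and 10 lower (55.6%) of 18 tested probe sets. Over all tested probe sets 35.4% were higher and 56.2% lower, so the share lower was near the background. The median of complex V, -0.30 beside -0.56 over all, changed sign with scaling, from -0.73 with quantile normalization to 0.09 with centring. In the F1 head, which makes the ATP, 1 subunit was higher and 4 lower, with a median of -0.39 that was 0.00 with centring, where 1 subunit stayed lower. Atp5f1b, the catalytic beta subunit, read 11.999 and 12.14 on the KD mutant arrays and 12.93, 12.98 and 13.08 on the others, lower by a log2 difference of -0.91 (adjusted p 2.11e-07 in limma). Atp5f1a, Atp5f1c and Atp5f1d had differences of -0.39, -0.22 and -0.41, with the first at 0.00 and the second at 0.17 after centring, Atp5f1d at -0.02 and none of the 3 called, and Atp5f1c at -0.12 without KD mutant replicate 1. The small epsilon subunit Atp5f1e went the other way, at 11.43 and 11.29 against 6.90, 7.12 and 7.31, 19.2-fold higher (adjusted p 1.18e-12). The peripheral stalk, which holds the head still, had 2 higher (Atp5pf by 1.55 and Atp5pd by 0.21, which was -0.11 with quantile normalization and 0.14 without KD mutant replicate 1) and 3 lower, among them Atp5pb at -0.75.

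In the membrane part of complex V 4 probe sets were higher and 3 lower, with a median of 0.92. Atp5mpl, a small proteolipid of the membrane domain, had the largest difference of all members. It read 10.87 and 10.90 on the KD mutant arrays and 5.14, 5.15 and 5.23 on the others, a difference of 5.72 ± 0.0758 or 52.6-fold (adjusted p 4.18e-14 in limma). Atp5mf read 12.60 and 12.42 against 9.16, 9.23 and 9.29, and Atp5mg and Atp5mk were higher by 2.47 and 0.92. Atp5me, which takes part in pairing ATP synthases into dimers, was lower by both of its probe sets, 1 of which read 4.12 and 4.32 on the KD mutant arrays, below the filter level, against 5.89, 6.05 and 6.13. Of the genes for the c subunit, whose ring turns as protons pass, Atp5mc3 had a probe set of its own, at 12.91 and 12.78 against 13.54, 13.57 and 13.66 (difference -0.74), and Atp5mc1 and Atp5mc2 had none with a single gene. Atp5if1, the inhibitor that stops the enzyme from running backwards, was at 10.83 and 10.60 against 8.41, 8.53 and 8.88, higher by 2.10 (adjusted p 1.1e-09).

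The motif letters occurred in promoters of both directions. Taking the brightest tested probe set of each gene, 46 promoters belonged to genes called higher on the KD mutant arrays and 26 to genes called lower. The NRF1 letters were in 9 of the 46 (19.6%) and 6 of the 26 (23.1%), the ETS letters in 13 (28.3%) and 7 (26.9%), and the YY1 letters in 6 of the 46 and 10 of the 26. These shares are given as a description, without a test.

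Set against wild-type BMPR2 alone, the same KD mutant arrays gave 51 members higher, 28 lower and 9 not past the threshold, a median of 0.64 and called shares of 58.0% and 31.8% beside 34.5% and 55.1% of all tested probe sets (89.6% in all). The KD mutant arrays are shared with the comparison above, so it is no independent support. Differences were close to those above: 5.71 for Atp5mpl, 5.45 for Uqcr11, 4.91 for Cox7a2l, -1.07 for Uqcrc1, -1.60 for Ndufv1, -1.65 for Cox5a and -2.54 for Ndufaf1 (limma adjusted p from 5.89e-13 for Atp5mpl to 1.41e-06 for Uqcrc1).

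Among the other 4 groups no member passed the threshold in any of 7 comparisons. In limma, 0 of 88 members were called for the CD mutant against wild type (background 0%), the ED mutant against wild type (0.164%), the CD mutant against the empty vector (0.111%), the ED mutant against the empty vector (0.529%), the ED mutant against the CD mutant (0.351%), wild type against the empty vector (0.0133%) and the mean of wild type, CD and ED mutants against the empty vector (0.2%). In that order, 0, 8, 4, 9, 6, 2 and 8 members had an unadjusted p under 0.05, and the lowest adjusted p was 1, 0.549, 0.37, 0.187, 0.314, 0.648 and 0.268. With the variance fitted robustly and as a trend on intensity, limma called 1 member, Uqcrc1, in the ED mutant against the empty vector (-0.37, adjusted p 0.0166). The backgrounds are so low that a set of 88 probe sets would hold few calls at these rates.

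The differences were also small. They lay between -0.25 and 0.18 log2 for the CD mutant against wild type, between -0.36 and 0.33 for the ED mutant against wild type, between -0.33 and 0.33 for the CD mutant against the empty vector, between -0.37 and 0.45 for the ED mutant against the empty vector, between -0.29 and 0.39 for the ED against the CD mutant, and between -0.22 and 0.31 for wild type against the empty vector. The 95% intervals of all members stayed within -0.51 and 0.51 for the CD mutant against wild type and within -0.61 and 0.74 for the ED mutant against the empty vector, without adjustment for the number of members. A member's values over these 8 arrays spanned 0.28 log2 at the median and 0.64 at most (Ndufa7), compared with a median of 0.37 over all tested probe sets. Group means spanned 0.17 at the median, and the largest span was 0.45 for Ndufaf7.

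The member with the lowest p in the 7 comparisons was Ndufaf7, which modifies a core subunit of complex I during assembly. Its probe set 1374082_at read 7.06 and 6.89 in ED mutant cells, against 6.50 and 6.54 in empty vector cells, a difference of 0.45 (adjusted p 0.187 in limma). Uqcrc1 read 11.28 and 11.13 in ED mutant cells, against 11.61 and 11.53 in empty vector cells (-0.37, adjusted p 0.199). Neither pair of groups overlapped, and neither difference passed the adjustment. Ndufs6, an accessory zinc-binding subunit of complex I, read 8.93 and 8.92 in ED mutant cells, against 8.59 and 8.65 in CD mutant cells (0.30, adjusted p 0.314). Ndufv2 read 8.95 on both wild-type arrays against 8.59 and 8.68 in empty vector cells (0.31, adjusted p 0.648). For the CD mutant against the empty vector the lowest adjusted p was 0.37 for Uqcrfs1 (-0.33).

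Small shifts within a complex could be seen for complex I, the complex with the most members. In the ED mutant against the empty vector, 32 of 38 had a positive difference, with a median of 0.12 log2 and none past the threshold, while 11043 of 22502 tested probe sets were positive. The median difference to the empty vector mean was 0.11 and 0.12 on the ED mutant arrays, 0.01 and 0.06 on the CD mutant arrays and 0.04 and 0.05 on the wild-type arrays. Positive differences numbered 32 of 38 with quantile normalization and with centring as well, and 30 of 38 in wild type against the empty vector; both comparisons share the empty vector arrays. No test was made of this count, and subunits of a complex are not replicates.

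**Figure D3:**
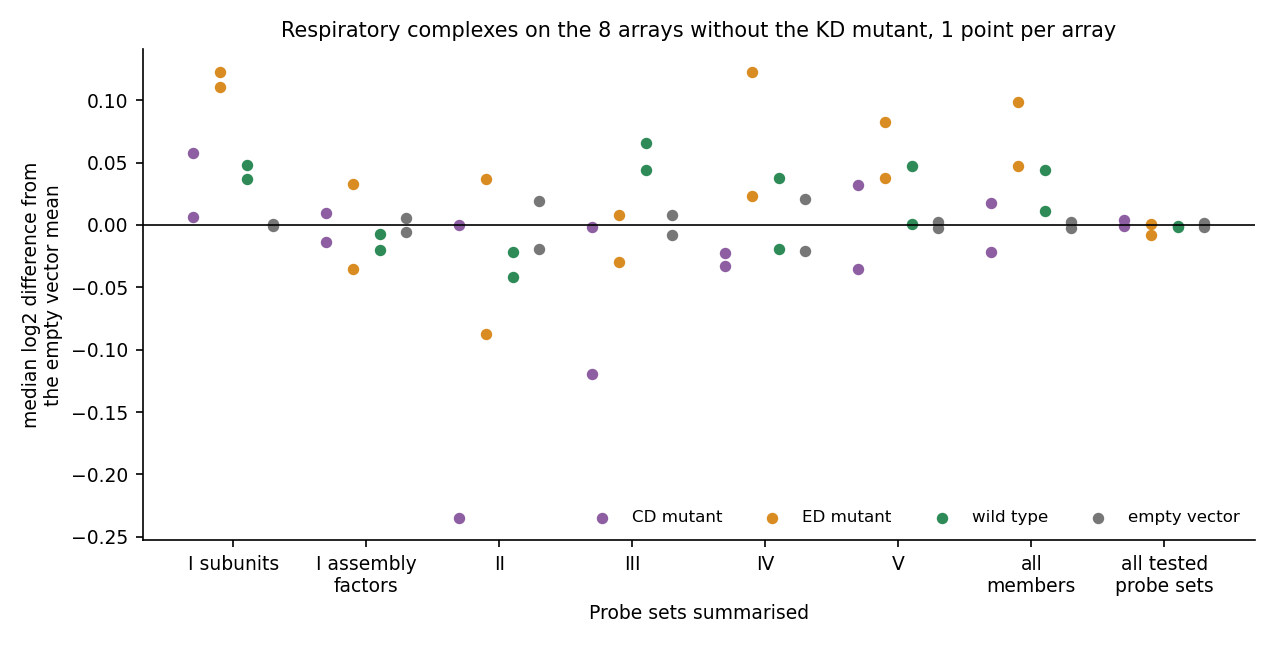
Each point is an array; the vertical axis is the median over a complex of the log2 difference from the empty vector mean, and the horizontal axis gives the complex, all members and all tested probe sets. The ED mutant points of complex I subunits, at 0.11 and 0.12, lie above the other 6 arrays, and the empty vector points lie near 0 by construction.

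**Figure D4:**
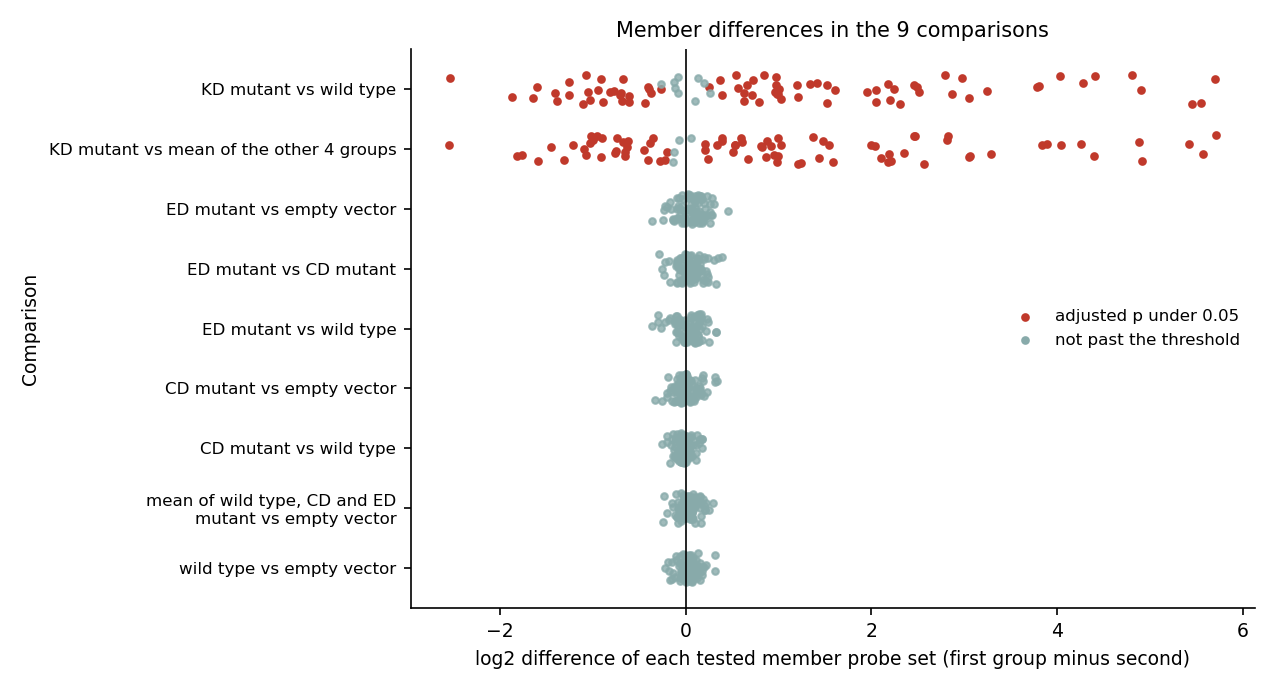
Each point is a tested member, with the log2 difference on the horizontal axis and the comparison on the vertical axis, the first-named group minus the second. Both KD mutant comparisons spread from about -2.55 to 5.72, and the 7 others stay between -0.37 and 0.45 with no red point.

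Regulators of the machinery went both ways on the KD mutant arrays. Of 25 tested probe sets for 16 regulators of mitochondrial gene expression, 7 were higher and 16 lower than in the other 4 groups, not far from the 35.4% and 56.2% over all tested probe sets. Their median was -0.74 (-0.91 with quantile normalization and -0.35 with centring), beside -0.56 over all. Ppargc1a, the coactivator of mitochondrial biogenesis, read 3.87 and 3.65 on the KD mutant arrays by probe set 1395518_at, below the filter level, against a median of 8.70 and no value below 8.51 on the others (measured difference -4.98), and its other 2 probe sets gave -5.09 and -4.99. Ppargc1b, its paralog, also lay below the filter level on both KD mutant arrays, with a measured difference of -3.35. Tfam, which packages and transcribes mitochondrial DNA, was higher, at 8.77 and 8.71 against 4.97, 5.27 and 5.38 (3.50, adjusted p 5.12e-12). Lrpprc, which stabilises mitochondrial messenger RNAs, was read by 3 probe sets that gave 4.78 (below the filter level on all other 8 arrays), -1.45 and -1.43. Nrf1 had 3 probe sets at -2.14, 0.15 and -1.13. None of these probe sets was called in the 7 comparisons without KD mutant cells.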

How the data were processed

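Total RNA of 10 samples was read on Affymetrix rat arrays. The deposited values are log2 and were made by the authors with RMA (background correction, normalization and summary of probes), per the submitters' processing notes; whether all arrays were normalized together is not given in the sources used here. No columns were left out (0). Of 31099 probe sets, 57 controls were set aside; 20826 had 1 gene in the platform annotation, 436 several and 9780 none. A further 7 probe sets naming several genes, 1 or more fitting the rule, were left out. Probe sets reaching the 40th percentile of all values (4.82) on 2 arrays were tested with limma 3.58.1 in R 4.3.3: 5 group means over all 10 arrays (5 residual degrees of freedom), contrasts, eBayes, and Benjamini-Hochberg adjustment over 22502 probe sets. The code was tested on simulated data. Named per comparison were all called members up to 12, otherwise the 2 largest rises and falls per complex without overlap, and the lowest p per complex, tissue isoforms, Sdh genes and genes with several probe sets. The named 4 per list of other genes were those with the lowest p; further members are named for their role, after their values were seen. Members, lists, roles and markers were chosen with earlier results of these data known. Alternatives were the filter, scaling, variance model, the arrays fitted, a replicate block and leaving out each array.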

Additional observations from a re-analysis of the deposited data

How the results depend on the processing

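The number of members called was 77 to 88 for the KD mutant against the other 4 groups (84 as reported) and 74 to 82 against wild type (79 as reported) over the alternatives run, the scalings and left-out arrays included. It was 0 under every alternative in the 7 other comparisons, except 1 (Uqcrc1) for the ED mutant against the empty vector with a trended and robust variance; the cause was not tested. Without the probe sets whose direction the filter fixed, added after seeing the data, 75 of 79 members were called. The number of members tested was not the same in every alternative: it was 94 without the filter and 82 with 1 probe set per gene, beside 88 in the main fit. The member median for the KD mutant against the other 4 groups was 0.26 with quantile normalization, 0.99 with centring, 0.52 with no filter, and 0.50 and 0.71 without KD mutant replicate 1 and 2. Centring turned the Sdhd probe set 1371296_at to 0.034 and, against wild type, left it at -0.003 (adjusted p 0.977). Without 1 array, 7 members with small differences lost their call in at least 1 fit, among them Ndufs3, Ndufs4, Ndufaf8, Atp5pd and Atp5f1c; without KD mutant replicate 1, Ndufaf8 was 0.04 and Atp5f1c -0.12. Replicate numbers are shared between groups, but same-numbered arrays did not deviate together (correlations of -0.03 to 0.14); with the replicate block 84 and 79 members were called, and 0 elsewhere. Detection calls were not used, so the size of differences that reach below 4.82 log2 is not exact.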

Other observations

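Other mitochondrial genes also went both ways on the KD mutant arrays. Of 44 tested probe sets for 34 assembly factors outside the naming rule, 26 were higher and 17 lower than in the other 4 groups (median 0.80 log2, 0.65 with quantile normalization and 1.19 with centring). The background for this list and the TCA cycle list below was 35.4% higher and 56.2% lower over all tested probe sets. In all 91.5% were called there, with a median of -0.56, so being called is near the background. Sdhaf1 and Sdhaf3, factors that protect or insert the iron-sulphur clusters of Sdhb, had differences of 4.04 and 3.99, the second with all other 8 arrays below the filter level. Cox14, a complex IV assembly factor, was higher by 4.01, while the 3 probe sets of Cox11, which delivers copper to complex IV, gave -3.41, -1.89 and -1.53. Of 18 probe sets for 13 genes of the TCA cycle and pyruvate dehydrogenase, 9 were higher and 8 lower (7 and 10 with quantile normalization). Dld, the shared lipoamide dehydrogenase, was higher by 4.66 and Ogdh by 3.11, and the 4 probe sets of Cs, citrate synthase, disagreed at -3.04, -1.35, 0.93 and 0.94.

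Carriers, import factors and chaperones were lower in 17 and higher in 7 of 27 probe sets, near the 56.2% and 35.4% over all tested probe sets, with a median of -0.61 (-0.99 with quantile normalization and -0.23 with centring) beside -0.56 over all. Probe sets of 1 gene disagreed here too: those of Hspa9, the motor chaperone of import, gave 3.74, -2.08 and -2.03, and those of Tomm20, an import receptor, 3.21 and -0.62. Vdac1, the main outer-membrane channel, had differences of -2.04 and -0.16, the second 0.23 with centring. No probe set of these lists was called in the 7 comparisons without KD mutant cells.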
